A study of Mus musculus with 9 samples.

Results

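The baseline transcriptome of 5TGM1 myeloma cells was described from the 3 samples labelled as control cells, out of 9 samples in the series. The members were chosen by label alone, and all 3 were used. 5TGM1 is a mouse multiple myeloma line, labelled as wild type in genotype, in which a lentivirus drives constitutive Cas9. The control cells carried a second lentivirus with a guide RNA (gRNA) against the Rosa26 locus, a site commonly used as a neutral target, so Cas9, both viral integrations and drug selection belong to the baseline given here. The other 6 samples carried gRNAs against sugar transporter genes and were not used here.

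Plasma cells are the end stage of the B cell lineage, and each secretes the antibody of a single rearranged heavy and light chain. *Irf4*, *Prdm1* (Blimp-1) and *Xbp1* encode the transcription factors that set this state, close down much of the B cell program and widen the secretory pathway, and *Sdc1* encodes the surface marker CD138. Multiple myeloma is the malignancy of these cells, which grows as a clone.

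Each sample gives, for 53077 genes named by symbol, a level in TPM, a share of all transcripts that scales read counts by the length a read can start in (the effective length) and sums to the same total in every sample. Estimated counts summed to 28083601, 27166930 and 30537105 in replicates 1, 2 and 3. A gene was counted as expressed at a mean of at least 1 TPM over the 3 replicates. By this measure 11245 genes, or 21.2% of those listed, were expressed. Of the 21231 symbols annotated as protein-coding in GENCODE M21, 9729 were expressed, or 45.8%. No estimated count was found for 29944 genes in any control replicate. Of the expressed genes, 457 rested on fewer than 10 estimated counts in at least 1 replicate.

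The label was checked against its 4 defining markers, and all were expressed in every replicate. *Xbp1* (chr11:5520659-5525893, GRCm38, plus strand) stood at 403, 435 and 568 TPM in replicates 1, 2 and 3. *Irf4* (chr13:30749226-30766976, plus strand) stood at 93.1, 106 and 136 TPM, and *Sdc1* (chr12:8771323-8793715, plus strand) at 76.4, 98.8 and 109 TPM. *Prdm1* (chr10:44437177-44528501, minus strand) was the lowest of these at 20.3, 18.9 and 33.9 TPM. Replicate 3 had the highest value of each of these genes. The same held for most genes in TPM, as given with the replicate spread.

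Immunoglobulin, mitochondrial and ribosomal transcripts filled the top of the ranking. The 10 highest genes held 28.2, 30.6 and 25.6% of all TPM, or 28.2 ± 2.48% (SD, n = 3), and the 50 highest held 49.2, 51.7 and 45.9%. The share of the 10 highest was 10.8% by estimated counts and 14.7% among genes with an effective length of at least 100 bases, the latter chosen after seeing the data. Among the 20 highest genes, 7 were mitochondrial, 6 encoded cytosolic ribosomal proteins and 4 were immunoglobulin genes. The immunoglobulin genes were *Igkv10-96*, the kappa constant region *Igkc*, *Ighv1-54* and the heavy constant region *Ighg2b*. The others were *Gm28661*, *Rps27rt* and *Eef1a1*, the elongation factor that brings aminoacyl-tRNA to the ribosome.

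**Figure D1:**
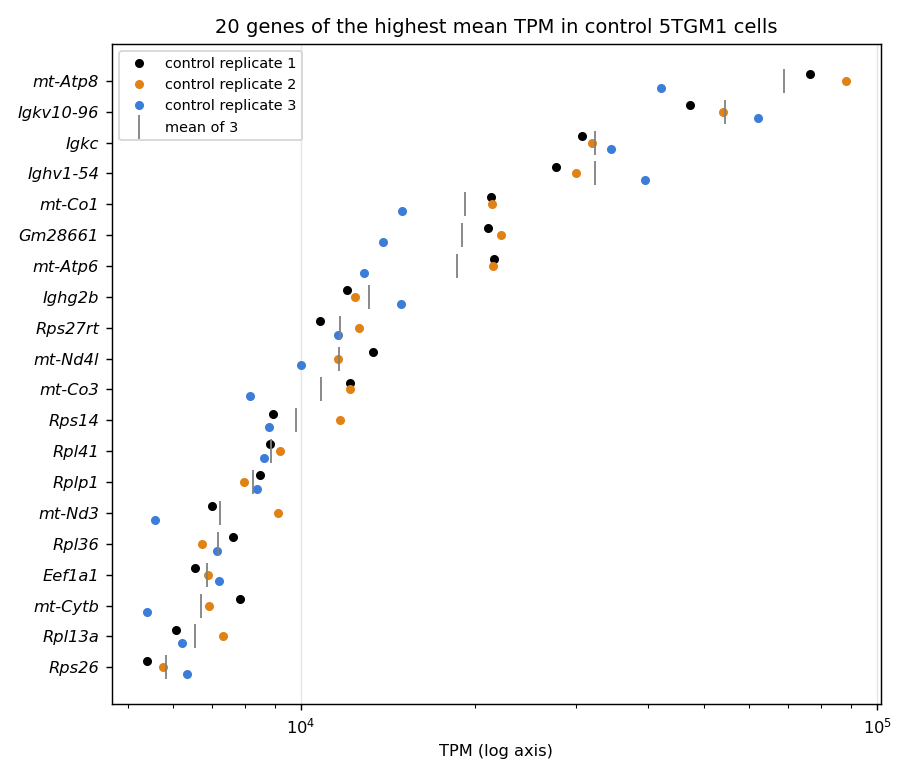
TPM in control replicates 1, 2 and 3 (points) and their mean (bars) for the 20 genes of the highest mean TPM, on a log axis. *mt-Atp8* lies at the top with 42140 TPM in replicate 3 and 88185 TPM in replicate 2, and the next 3 genes are immunoglobulin genes.

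The order differed between TPM and counts. *mt-Atp8*, a subunit of the mitochondrial ATP synthase, had 76461, 88185 and 42140 TPM with an effective length of 21.8 bases. It held 7.65, 8.82 and 4.21% of TPM but 0.203, 0.243 and 0.101% of estimated counts. Of the 10 highest genes, 5 had an effective length under 100 bases, and 10 genes were shared between the 20 highest by TPM and the 20 highest by counts. By counts the leading gene was *mt-Co1*, the catalytic subunit of cytochrome c oxidase, with 625180 to 921444 estimated counts, followed by *Ighg2b* with 342026 to 413179.

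Copies limit other entries. *Gm28661* (chr1:24614885-24615565, minus strand) is annotated as a pseudogene, and its 21081, 22193 and 13849 TPM lay close to the 21588, 21535 and 12855 TPM of *mt-Atp6*. *Rps27rt* had 10804, 12610 and 11606 TPM, whereas *Rps27*, which gives it its name, had 110, 58.6 and 37.8 TPM. How reads were divided between such near-identical copies was not tested, and their levels are uncertain.

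Ribosomal protein genes held 23.0, 22.9 and 23.4% of TPM, and 10.6, 11.0 and 9.63% of estimated counts. The 37 genes of mitochondrial DNA held 18.0, 18.8 and 11.3%, with replicate 3 lowest, and the same order held for their share of estimated counts at 8.01, 8.01 and 4.84%. The pseudogene *Gm28661* is not among these 37 genes. Immunoglobulin genes held 12.1, 13.1 and 15.4% of TPM, or 13.5 ± 1.71% (SD, n = 3). That share was 3.14% of estimated counts, and the variable segment *Igkv10-96* has an effective length of 77.4 bases.

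**Figure D2:**
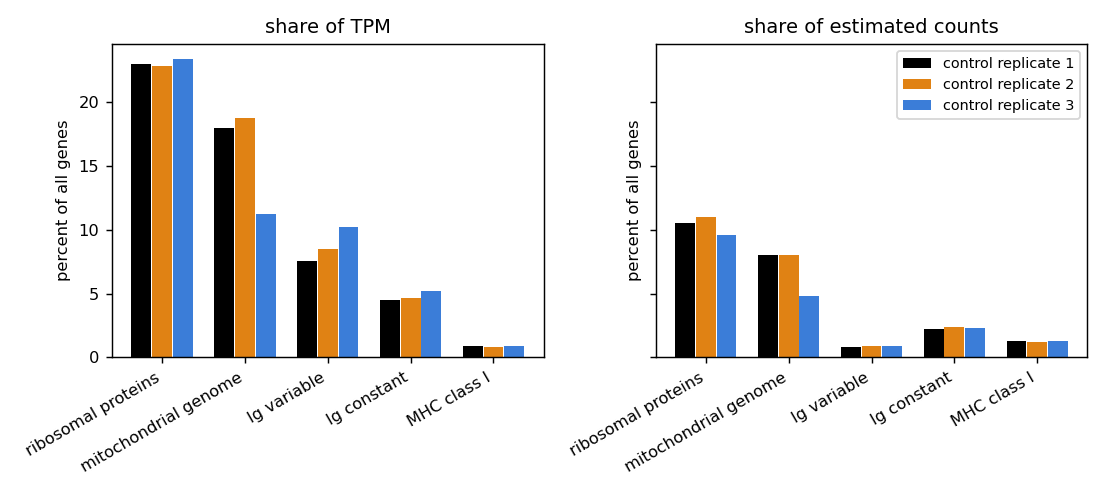
Share of TPM (left) and of estimated counts (right), in percent, taken by 5 gene classes in control replicates 1, 2 and 3. Mitochondrial transcripts take 11.3% of TPM in replicate 3 and 18.0 and 18.8% in replicates 1 and 2, while ribosomal protein genes take 22.9 to 23.4% in each.

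*Ighg2b* led the heavy constant regions, of which 4 of 8 were expressed (21.2% of all genes were), and *Igkc* led the light ones. *Ighg2b* (chr12:113302965-113307933, minus strand), the constant region of IgG2b, had 12023, 12401 and 14899 TPM and made up 98.1, 98.3 and 97.9% of heavy constant TPM. *Ighm*, the constant region of IgM, came next with 227, 207 and 315 TPM, and the *Ighg2b* mean was 52.5 times its mean. *Ighg2c* had a mean of 3.25 TPM and *Igha* of 1.24 TPM. The remaining constant regions *Ighe*, *Ighd* and *Ighg3* had means of at most 0.183 TPM, and *Ighg1* had no count, where 3 counts would have given 0.0589 to 0.0604 TPM. Such limits cover counting error only, and a count of 0 can also arise where reads are assigned to another entry, which was not tested.

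*Igkc* (chr6:70726435-70726966, plus strand) had 30751, 32009 and 34518 TPM and made up 93.9, 95.3 and 94.8% of light constant TPM. The lambda constant regions together had 1996, 1574 and 1890 TPM, with *Iglc3* at a mean of 885 TPM, *Iglc2* at 786 TPM and *Iglc1* at 149 TPM. *Iglv3*, a lambda variable segment, had 448, 473 and 531 TPM. Lambda transcripts were thus measured in every replicate, 17.8 times below *Igkc* in summed constant region TPM. *Jchain*, which joins IgA and IgM into polymers, had 58.5, 52.3 and 57.9 TPM.

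A single variable segment led each chain. *Ighv1-54* (chr12:115193675-115194134, minus strand) held 98.9% of heavy variable TPM with 27748, 29968 and 39528 TPM. *Igkv10-96* (chr6:68631963-68632442, minus strand) held 99.9% of kappa variable TPM with 47219, 54037 and 62005 TPM. Of 183 heavy segments listed, 178 had no count, as did 141 of 160 kappa segments, against 29944 of all 53077 genes. *Ighv1-12* (mean 223 TPM), *Ighv1-14* (112 TPM) and *Ighv1-55* (28.4 TPM) were the other heavy segments over 1 TPM, and *Igkv3-2*, *Igkv10-95* and *Igkv10-94* followed among kappa segments at 7.87, 7.79 and 7.71 TPM. Diversity and joining segments, which are very short, had no count in any replicate.

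The reference sequences of these segments show how alike the leading and the minor ones are. The last 120 bases of the longest GENCODE M21 transcript are printed, which end where the segment joins the next. These are germline references and not the sequence of the clone. In the leading segment capitals mark bases at which any of the others differs, and in the others they mark differences from the leading segment, aligned from the end without gaps.
Igkv10-96: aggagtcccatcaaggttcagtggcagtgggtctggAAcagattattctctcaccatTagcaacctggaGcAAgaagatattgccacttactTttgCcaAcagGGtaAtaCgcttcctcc
Igkv10-95: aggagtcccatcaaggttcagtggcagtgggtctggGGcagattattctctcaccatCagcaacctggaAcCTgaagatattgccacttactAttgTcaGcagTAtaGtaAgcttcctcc
Igkv10-94: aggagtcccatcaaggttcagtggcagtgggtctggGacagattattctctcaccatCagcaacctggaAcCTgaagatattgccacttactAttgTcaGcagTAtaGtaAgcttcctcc
Ighv1-54: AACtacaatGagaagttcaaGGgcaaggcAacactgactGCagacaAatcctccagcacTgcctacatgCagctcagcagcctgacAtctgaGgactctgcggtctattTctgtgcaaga
Ighv1-12: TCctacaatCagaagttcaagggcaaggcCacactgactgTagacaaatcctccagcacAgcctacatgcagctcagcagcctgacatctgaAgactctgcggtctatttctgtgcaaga
Ighv1-14: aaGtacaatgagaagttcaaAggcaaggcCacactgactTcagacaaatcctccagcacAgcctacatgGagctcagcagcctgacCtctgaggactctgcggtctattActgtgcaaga
Ighv1-55: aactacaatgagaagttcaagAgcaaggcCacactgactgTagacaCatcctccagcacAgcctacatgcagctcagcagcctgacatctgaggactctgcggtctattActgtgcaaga
Over the last 280 bases, *Igkv10-95* was 93.6% and *Igkv10-94* 94.3% identical to *Igkv10-96*. *Ighv1-12*, *Ighv1-14* and *Ighv1-55* were 87.5, 87.9 and 89.6% identical to *Ighv1-54*. Whether the minor segments hold reads of the leading ones was not tested.

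**Figure D3:**
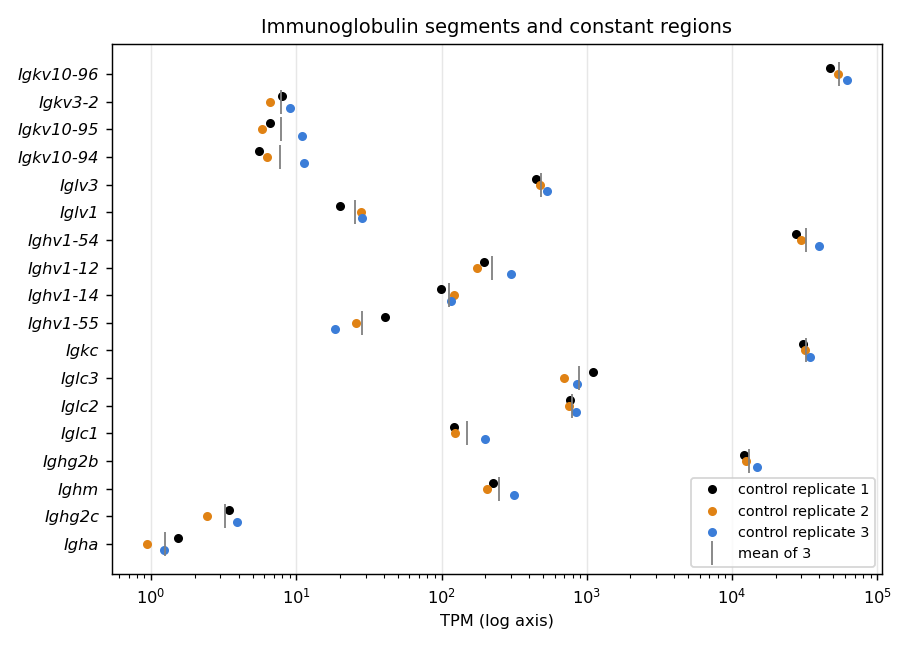
TPM in control replicates 1, 2 and 3 (points) and their mean (bars) for variable segments and constant regions of both chains, on a log axis. *Igkv10-96*, *Ighv1-54*, *Igkc* and *Ighg2b* lie between 12023 and 62005 TPM, and the other genes shown are at most 1109 TPM.

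The plasma cell list was largely expressed. Of 26 listed genes, 22 were expressed, against 45.8% of protein-coding genes. The list includes the 4 defining markers and was chosen with earlier results of these data known, so this count is no test of identity. Beside the defining markers these included *Edem1* (mean 220 ± 31.7 TPM, SD, n = 3), which directs misfolded glycoproteins to degradation, and *Pou2af1* (188 ± 29.5 TPM), a coactivator of octamer-binding factors. *Eaf2*, an elongation cofactor, had 145 ± 13.8 TPM, and the disulfide isomerase *Txndc5* had 138 ± 13.2 TPM. *Itga4*, the integrin chain that binds VCAM-1, stood at 103, 115 and 184 TPM, and *Cxcr4*, the receptor that holds plasma cells in bone marrow, at 61.8, 71.8 and 80.3 TPM. *Mzb1*, a chaperone of antibody secretion, ranged from 57.8 TPM in replicate 1 to 144 TPM in replicate 3.

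Several plasma cell genes were low. *Cd38*, a surface ectoenzyme (chr5:43868553-43912375, plus strand), had no count in any replicate, where 3 counts would have given 0.0491 to 0.0503 TPM. *Tnfrsf17*, the receptor BCMA, had 1.36, 0.280 and 1.10 TPM from 5 to 24 estimated counts. *Ly6k* had a mean of 0.731 TPM and *Cd28* of 0.390 TPM. The related receptor *Tnfrsf13b* (TACI) was high at 171, 162 and 204 TPM, and *Tnfrsf13c* (BAFF receptor) had a mean of 11.5 TPM.

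Of 31 B cell genes, 12 were expressed, or 38.7%, against 45.8% of protein-coding genes. *Cd74*, the invariant chain of MHC class II, had 1054, 931 and 1214 TPM, yet the class II chains were far lower, with *H2-Eb1* at 43.0 TPM, *H2-Ab1* at 2.64 TPM and *H2-Aa* at 0.0703 TPM on average, and *Ciita*, the class II transactivator, at 0.0658 TPM. The antigen receptor chains also parted. *Cd79b* stood at 143, 115 and 144 TPM, whereas *Cd79a* had 0.101, 0.0251 and 0.0772 TPM from at most 4 estimated counts.

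The signalling genes *Blnk* (68.0 TPM), *Syk* (33.6 TPM) and *Btk* (21.8 TPM) were expressed, as were *Ptprc* (78.1 TPM), *Mef2c* (73.0 TPM), *Spi1* (25.7 TPM) and *Foxo1* (8.73 TPM). *Ikzf3* lay at the threshold with 1.01 TPM. The B cell identity factors *Pax5* (0.236 TPM), *Ebf1* (0.0103, 0.0113 and 0.208 TPM) and *Bcl6* (0.0185 TPM), and the surface genes *Ms4a1* (0.101 TPM) and *Cd22* (0.0100 TPM), lay below it. *Bach2* had 0.0355, 1.47 and 0.0538 TPM, above 1 TPM in replicate 2 alone, but from only 9.905 to 18 estimated counts. For this gene 3 counts would have given 0.0107 to 0.245 TPM, depending on the replicate. Its TPM therefore differed far more between replicates than its counts did, and is no sign of a rise in replicate 2. *Ebf1* rested on 1 to 7 estimated counts. *Blk*, a Src family kinase, had no count. None of the 10 B cell precursor genes was expressed, against 45.8% of protein-coding genes, and *Rag1* and *Rag2*, the recombinases, had no count.

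Markers of other lineages were mostly below the threshold, which 45.8% of protein-coding genes reached. None of 22 T and NK cell genes was expressed, the highest being *Cd8b1* at 0.281 TPM. Over 80 genes of T and NK cells, myeloid cells, erythroid cells and megakaryocytes, stroma, endothelium and epithelium, 7 were expressed and 26 had no count. Over all genes listed, 29944 of 53077 had no count, a larger share. The number of expressed markers was 11 at a minimum of 0.5 TPM, and 11 at a minimum of 10 estimated counts in every replicate. The 7 included *Epcam* (chr17:87635979-87651129, plus strand), an adhesion molecule of epithelia, at 322, 272 and 266 TPM. *Ly6c2*, which is also expressed by plasma cells, had 361, 204 and 193 TPM, and the lysosomal gene *Cd68* had 97.2, 56.8 and 83.8 TPM. *Tfrc*, *Itga2b*, *Pecam1* and *Mrc1* had means of 24.7, 17.6, 4.10 and 3.70 TPM.

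The defining genes beside *Epcam* were near 0, with *Krt18* at 0.180 TPM and *Krt8* and *Cdh1* without a count. Hemoglobin genes also had no count, with 12 of 12 at 0. In bulk RNA, a few cells of another type and little RNA in each cell cannot be told apart. Of the sex chromosome list, *Xist* had 0.269, 0.397 and 0.181 TPM, and the Y-linked genes *Ddx3y*, *Eif2s3y*, *Zfy1* and *Sry* had no count. The Y-linked genes *Kdm5d* and *Uty* had low counts in every replicate, with means of 0.136 and 0.142 TPM.

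**Figure D4:**
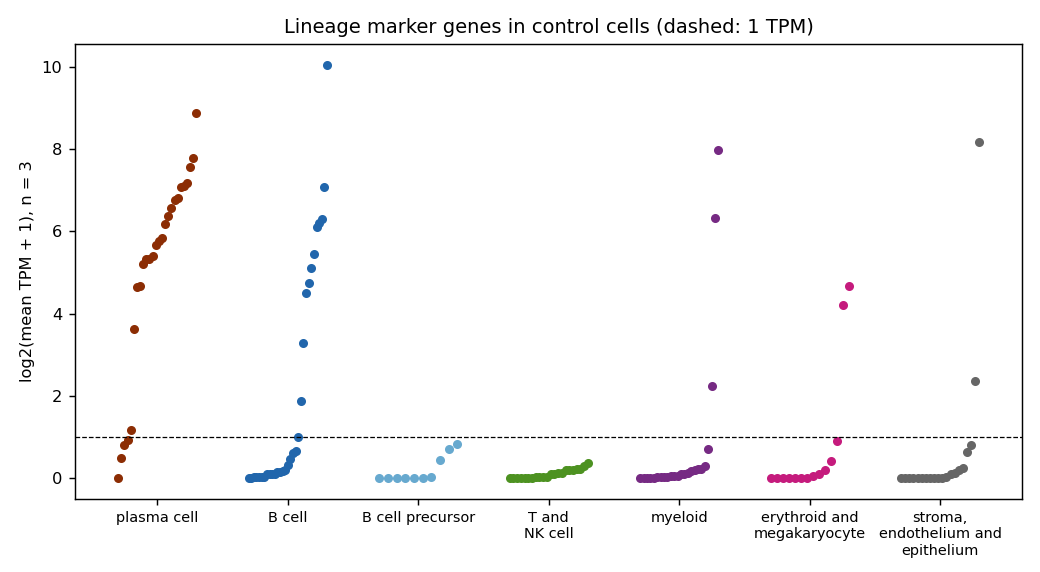
Mean level of each marker gene, as log2(mean TPM + 1) over 3 control replicates, for 7 lineage lists, each sorted from low to high, with 1 TPM dashed. Of the plasma cell genes 22 of 26 lie on or above the line, of the T and NK cell genes 0 of 22.

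Transcription factors were ranked within the plasma cell list and the Irf, Stat, NF-kB, Ikaros, Klf, E2f, Fox, Sox, Pax, Gata and Hox families. The ranking also held *Pou2af1*, *Eaf2* and *Ell2* of the plasma cell list, which are transcriptional cofactors. *Myc* and the AP-1 genes were outside this ranking, and *Jund* had 278, 306 and 442 TPM. Behind *Xbp1*, *Pou2af1*, *Eaf2* and *Irf4*, all of the plasma cell list, came *Foxp1* at 59.0, 59.7 and 93.0 TPM and *Ikzf1* (Ikaros) at 57.1, 60.8 and 89.7 TPM. *Klf12*, *Nfkb1*, *Ell2*, *E2f4*, *Rela*, *Irf3*, *Foxm1*, *Creb3l2* and *Stat6* followed, from 53.1 down to 32.4 TPM on average. All 5 NF-kB family genes were expressed, as were 10 of 12 Irf, 6 of 7 Stat and 7 of 8 E2f genes, against 45.8% of protein-coding genes. Other families were lower, with Fox at 13 of 45, Sox at 2 of 19 and Gata at 1 of 6. Over all 179 genes considered in this ranking, 70 were expressed. No Pax gene of 9 was expressed.

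Myeloma and cell cycle genes were read from a list of 25. *Myc* had 127, 129 and 159 TPM. Of the D-type cyclins, *Ccnd2* stood at 109, 143 and 146 TPM, *Ccnd3* at a mean of 55.2 TPM and *Ccnd1* at 4.67 TPM. *Maf* and *Mycn* had no count, and *Fgfr3* averaged 0.0108 TPM, while *Nsd2*, the methyltransferase joined to the same translocation in human myeloma, had 16.4 TPM. *Cks1b* (122 TPM), *Mki67* (56.5 TPM) and *Trp53* (65.3 TPM) were expressed, while *Rb1* (0.352 TPM), *Cdkn2a* (0.0820 TPM) and *Cdkn2b* (0.125 TPM) were below the threshold. *Samsn1* (chr16:75858793-76022281, minus strand), an adaptor known to be deleted in the mouse strain in which this myeloma arose, had 0.140, 0.0667 and 0 TPM.

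Among the Bcl2 family, which governs mitochondrial apoptosis, 12 of 18 genes were expressed, against 45.8% of protein-coding genes. Among the antiapoptotic genes, *Mcl1* led with 205, 216 and 257 TPM and *Bcl2l1* followed with 69.6, 68.1 and 89.8 TPM. *Bcl2* had 2.51, 2.21 and 3.18 TPM. The ranges of these 3 genes did not overlap. The effectors *Bax* and *Bak1* had means of 86.3 and 30.3 TPM, and the BH3-only genes *Bbc3*, *Pmaip1* and *Bcl2l11* had 55.7, 41.0 and 20.1 TPM. *Bcl2a1a*, *Bcl2a1b*, *Bcl2a1d*, *Bok* and *Hrk* had no count.

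Of the genes of the secretory pathway, several chaperones were high. *Hsp90b1* (GRP94) had 747, 859 and 1070 TPM, *Hspa5* (BiP) had 654, 771 and 1104 TPM, and *Calr* (calreticulin) had 484, 551 and 669 TPM, all chaperones of the endoplasmic reticulum. The disulfide isomerases *P4hb* and *Pdia6* had means of 633 and 422 TPM, and 5 of 6 genes of this family were expressed, against 45.8% of protein-coding genes, *Pdia2* being without a count. All 6 Sec61 translocon genes were expressed, with a median of 38.3 TPM and *Sec61b* highest at 430, 487 and 489 TPM. Others were lower, with means of 30.1 TPM for the cochaperone *Dnajc3*, 19.8 TPM for the oxidase *Ero1b* and 11.3 TPM for *Derl3*.

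Several of these genes share the endoplasmic reticulum stress response element, written here as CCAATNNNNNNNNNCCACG and searched on both strands. The windows below lie upstream of the start site in RefSeq (GRCm38.p6), with the fixed letters of each match in capitals, and are shown because they belong to the highest genes holding the element.
Hsp90b1, chr10:86705513-86705676, minus strand: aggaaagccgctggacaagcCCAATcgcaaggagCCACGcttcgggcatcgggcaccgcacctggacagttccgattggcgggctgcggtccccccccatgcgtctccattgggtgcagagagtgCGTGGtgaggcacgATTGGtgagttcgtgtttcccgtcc
Hspa5, chr2:34772005-34772063, plus strand: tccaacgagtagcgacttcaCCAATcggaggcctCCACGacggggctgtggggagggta
Calr, chr8:84847055-84847113, minus strand: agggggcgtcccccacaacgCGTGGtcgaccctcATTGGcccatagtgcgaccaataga
Pdia6, chr12:17266471-17266529, plus strand: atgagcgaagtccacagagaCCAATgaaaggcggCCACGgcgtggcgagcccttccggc
The *Hsp90b1* window holds 2 copies and the others 1. The element was found in the promoters (250 bases before to 50 after the start) of 37 of 27025 genes, or 0.137%, of 16 of 8362 genes at 1 TPM or more, or 0.191%, and of 7 of 588 genes at 100 TPM or more, or 1.19%. These 7 were *Hsp90b1*, *Hspa5*, *Calr*, *Pdia6*, *Canx* (192 TPM), *Hnrnpa3* (145 TPM) and *Creld2* (118 TPM). Lower genes also held it, among them *Syvn1* (52.0 TPM), *Dnajc3* (30.1 TPM), *Ero1b* (19.8 TPM) and *Derl3* (11.3 TPM). A match is a description of these letters and not a site shown to be used, and the element was searched after the levels were seen.

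Most housekeeping complexes were close to complete, where 45.8% of protein-coding genes were expressed. All 78 mitoribosomal protein genes, all 37 complex I genes, all 17 ATP synthase genes and all 12 RNA polymerase II genes were expressed. Of 43 proteasome genes 41 were expressed, the exceptions being the testis subunit *Psma8* and the thymus subunit *Psmb11*. Of 89 ribosomal protein genes 81 were expressed, and the 8 others were *Rpl3l*, which replaces *Rpl3* in muscle, *Rpl10l*, *Rpl39l* and 5 further paralogs. Of 19 nuclear cytochrome c oxidase genes 14 were expressed, and *Cox6b2*, *Cox6c2*, *Cox7b2*, *Cox8b* and *Cox8c* were not.

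Over all gene families examined here, housekeeping families and solute carriers included, 763 of 4219 genes were expressed, against 21.2% of all genes. Several families had no expressed member. No T cell receptor segment (of 253), keratin-associated gene (of 58), beta defensin (of 41), major urinary protein (of 22), sodium channel (of 14) or Siglec (of 10) was expressed. Odorant receptors had 12 of 1117 and vomeronasal receptors 1 of 336. Further families were expressed below the 45.8% of protein-coding genes, with laminins at 3 of 11, calcium channels at 7 of 26, Frizzled receptors at 3 of 10, ephrins and their receptors at 5 of 22 and Hox genes at 8 of 39.

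TNF receptors had 12 of 25 genes expressed and integrins 13 of 27, near the 45.8% of protein-coding genes, and interleukin receptors had 12 of 41. *Cxcr4* and *Ccr10* (mean 4.01 TPM) were the expressed chemokine receptors of 23. *Tlr4*, the receptor of lipopolysaccharide, was the expressed Toll-like receptor of 12, with 29.5, 31.1 and 55.4 TPM. *Il5ra*, the interleukin 5 receptor chain, had 122, 149 and 183 TPM, whereas *Il6ra* had 1.30, 0.640 and 1.84 TPM. The inhibitory Fc receptor *Fcgr2b* averaged 37.9 TPM, and *Kcnn4*, a calcium-activated potassium channel, had 215, 183 and 245 TPM. Interleukin genes were led by *Il16* (79.0 TPM) and *Il10* (43.2, 23.0 and 40.5 TPM).

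MHC class I was led by 2 genes. *H2-K1* had 4487, 4325 and 4571 TPM, *H2-D1* 1998, 1842 and 2193 TPM, and their partner *B2m* 3015, 2850 and 3261 TPM. Of 29 class I genes 13 were expressed, or 44.8%, near the 45.8% of protein-coding genes. Among them were *H2-Q7* at 830 TPM and *H2-Q6* at 423 TPM. How reads were divided between these related genes was not tested, so their levels are uncertain.

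Solute carriers, with *Slc50*, *Slc35*, *Slc29*, *Slc5* and *Slc2* left out, comprised 310 genes in 46 families, and 125 of these genes were expressed, against 45.8% of protein-coding genes. The highest was *Slc38a6* (chr12:73286779-73354049, plus strand), assigned to the amino acid transporters, with 1137, 909 and 1084 TPM. It exceeded *Slc3a2* (252, 261 and 360 TPM) and *Slc7a5* (185, 188 and 268 TPM), the chains of a large neutral amino acid exchanger. The mitochondrial carriers *Slc25a5* and *Slc25a3* had 259 and 133 TPM, the choline carrier *Slc44a1* 118 TPM, *Slc38a10* 91.0 TPM and the zinc carrier *Slc39a7* 85.1 TPM on average.

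Mitochondrial carriers (*Slc25*) had 34 of 47 genes expressed, against 45.8% of protein-coding genes. Families without an expressed member numbered 11, among them *Slc8* sodium-calcium exchangers, *Slc34* phosphate carriers and *Slc40*, whose member *Slc40a1* (ferroportin) exports iron. By contrast 1 of 26 *Slc22* organic ion carriers was expressed, *Slc22a5* at 3.95 TPM, and 1 of 21 *Slc6* carriers, *Slc6a9* for glycine at 21.7 TPM.

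Replicate spread was small for most genes. The median coefficient of variation (CV) over the 11245 expressed genes was 16.2% in TPM as deposited. It fell from 30.2% at 1 to 3 TPM to 6.50% at 1000 TPM or more. The CV expected from counting alone, 1 over the square root of the mean count, had medians of 10.7 and 0.511% there. A CV measured on 3 replicates has a median below its expected value, so these measures are not on the same scale. A difference of at least 2-fold between the highest and lowest replicate was found for 1241 expressed genes, and for 164 genes at 10 TPM or more. Without replicate 3 the median CV was 8.81%, and without replicate 1, 2 or 3 the count was 677, 777 and 674 genes, with fewer samples to differ.

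Replicate 3 stood apart in scale. At 10 TPM or more, the median gene was higher in replicate 3 than in replicates 1 and 2 by 0.19 and 0.25 on the log2 scale, and replicate 3 was the highest of the 3 for 7456 of 11245 expressed genes. Mitochondrial transcripts were lowest there, and their part in this shift was not tested. After scaling by TMM factors, which equalise the bulk of genes, the medians moved to within 0.01 and replicate 3 was highest for 4283 genes. The median CV was then 12.4%. On the TMM-scaled measure *Xbp1* stood at 415, 470 and 507 and *Irf4* at 95.8, 114 and 122. *Sdc1* stood at 78.6, 107 and 96.9, with replicate 2 now highest, and *Prdm1* still differed 1.48-fold.

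By the rule for the largest spread at 10 TPM or more, the 8 leading genes, such as *Gm26277* and *Snord15a*, all had fewer than 10 estimated counts in at least 1 replicate. With at least 10 counts in each and an effective length of at least 50 bases, a ranking chosen after seeing the data, the 8 leading genes were *Fosb*, *Fos*, *Gm49274*, *Ece1*, *Cd69*, *Dusp1*, *Gm28437* and *Ankrd37*. *Fos* had 12.6, 39.3 and 122 TPM and *Fosb* 3.94, 8.37 and 40.4 TPM, both subunits of the AP-1 factor, with *Jun* at 15.3, 27.6 and 54.4 TPM. The AP-1 genes *Junb* and *Jund* varied less, by 1.18-fold and 1.38-fold on the TMM-scaled measure. *Dusp1*, a phosphatase of MAP kinases, ranged from 12.99 to 59.1 TPM, and *Cd69*, an early activation antigen, 56.3, 62.5 and 185 TPM. *Ece1* had 16.8, 23.8 and 71.6 TPM. *Fos*, *Fosb*, *Jun*, *Dusp1*, *Cd69* and *Ece1* were highest in replicate 3, and on the TMM-scaled measure *Fos* still differed 8.46-fold and *Cd69* 2.84-fold.

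Other genes were highest in replicate 1. *Ankrd37* had 26.2, 9.44 and 8.66 TPM and *Gm49274* 22.5, 7.10 and 3.97 TPM. *Bnip3*, a mitophagy receptor, had 163, 69.7 and 46.9 TPM, and the metallothionein *Mt2* had 1953, 757 and 724 TPM. In GENCODE M21, 73.5% of the exonic bases of *Mt2* and 22.3% of those of *Bnip3* are shared with another gene. *Slpi*, a protease inhibitor, had 180, 84.1 and 59.7 TPM, and *Gapdh* 3152, 2266 and 2100 TPM. The smallest spread in deposited TPM belonged to *Srsf7*, *Cfdp1*, *Fkbp1a*, *B9d2* and *Kif4*, chosen for it, with *Srsf7* at 113 TPM in every replicate. No such ranking is given for the TMM-scaled measure, so these genes need not have the smallest spread there.

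**Figure D5:**
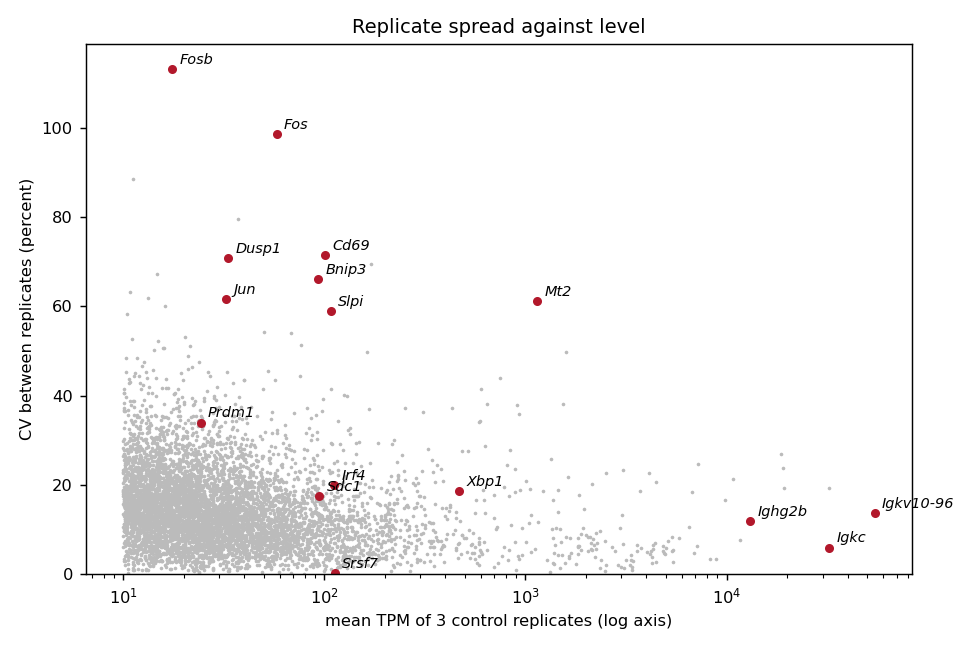
Coefficient of variation (percent) between 3 control replicates against mean TPM (log axis) for 6447 genes at 10 TPM or more with at least 10 counts in each replicate and an effective length of at least 50 bases, with named genes in red. *Fosb* and *Fos* lie highest, while *Igkc* lies below 10%.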

How the data were processed

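RNA of control gRNA-transduced 5TGM1-Cas9 cells was reverse transcribed from oligo-dT primers and sequenced as paired reads. The authors mapped the reads with Salmon 1.5.1, named in the submitters' processing notes, on the Galaxy platform, and deposited per sample a TPM value, an estimated count, a length and an effective length for each gene. The annotation is not given in the sources used here. Coordinates are from GENCODE M21 (GRCm38), where 49351 of 53077 names occur, and promoters from RefSeq.

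Levels were described by deposited TPM, and depth by estimated counts, between 27166930 and 30537105 per sample, in pandas and numpy. Nothing was tested between groups and no p-value was computed. TMM factors were computed with edgeR 4.0.16 in R 4.3.3 on rounded estimated counts and, like the CV, tested on simulated data. A limit for a gene without a count is the TPM of 3 counts. The authors call the samples 3 biological replicates, and the labels do not say whether they came from separate cultures.

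Genes named by rule are the 20 highest, the members of the marker, myeloma, Bcl2 family and sex chromosome lists, and up to 3 per family. So are the 8 and 5 genes of largest and smallest CV at 10 TPM or more. The rules also took the 15 highest transcription factors, cofactors among them, of the plasma cell list and 11 families. Other genes were named outside these rules, among them *Bnip3*, *Mt2*, *Slpi*, *Gapdh*, *B2m*, *Tmsb4x*, *Gm42860* and *Gm47652*. Some families give more than 3 genes. Some list members are not reported here. The members and lists were chosen with earlier results of these data known. Family name patterns were tidied, and the cytochrome c oxidase, RNA polymerase II, tubulin and AP-1 families added, after the tables were seen. Alternatives were other minimums, shares of counts, no mitochondrial genes, TMM scaling and leaving out each replicate.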

Additional observations from a re-analysis of the deposited data

How the results depend on the processing

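The counts of all genes, of plasma cell markers, of B cell markers and of family members stayed within 1.5 times of the values given under every alternative run for them. Expressed markers of other lineages numbered 7, and 11 at a minimum of 0.5 TPM and 11 at a minimum of 10 estimated counts in every replicate. The share of the 10 highest genes was 10.8% of estimated counts, 23.5% of TPM without mitochondrial genes, and 14.7% among genes of an effective length of at least 100 bases, the last chosen after seeing the data. The immunoglobulin share was 3.14% of estimated counts and 16.1% without mitochondrial genes. *Ighg2b* took 97.1% of heavy constant estimated counts, and *Igkc* 95.2% of light constant ones. The median CV was 12.4% after TMM scaling and 13.1% at a minimum of 10 TPM. Leaving out each replicate gave a median CV of 8.81 to 16.3% and 674 to 777 genes over 2-fold. That count was 164 at a minimum of 10 TPM, 672 on log2(TPM + 1) and 1107 after TMM scaling. In alternatives also chosen after seeing the data, 10913 expressed genes had an effective length of at least 100 bases, and the median CV was 15.6% with at least 10 counts in every replicate and at least 50 bases. Gene levels of short effective length or few counts may be less precise than others, and spread was not compared by effective length. Counting error sets the limits given for genes without a count, and the division of reads between near-identical copies cannot be judged from these tables.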

Other observations

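Some genes of other tissues were measured in every control replicate, in families that lay below the 45.8% of protein-coding genes expressed. The odorant receptor gene *Olfr784* (chr10:129384083-129390198, plus strand, GRCm38) had 100, 82.4 and 96.9 TPM, and the pheromone receptor gene *Vmn2r97* had 21.4, 20.7 and 25.1 TPM, and neither shares exonic bases with another gene of GENCODE M21. The homeobox genes *Hoxc4* (15.3, 16.4 and 18.9 TPM) and *Hoxa7* (9.19, 9.21 and 10.3 TPM) led 8 expressed Hox genes of 39. *Wnt10a* (mean 17.4 TPM) and *Wnt6* (mean 7.94 TPM) were the expressed Wnt ligands of 19. The neural cadherin *Cdh2* had 11.8, 11.4 and 15.4 TPM and was the expressed cadherin of 23. Among 44 collagen genes 5 were expressed, led by *Col11a2* at 19.1, 14.9 and 10.4 TPM, and among laminins *Lamc1* had 36.5, 34.9 and 50.2 TPM.

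*Tmsb4x*, encoding the actin-binding thymosin beta 4 that most blood cells express, was listed at 0 in all 3 replicates. Whether its reads were assigned to another entry was not tested, so a listed 0 need not mean absence, for this gene or for others without a count. Of the unnamed loci, *Gm42860* (1468, 1249 and 1654 TPM) and *Gm47652* (1018, 876 and 1271 TPM), which lack a protein-coding annotation, were among the genes of most estimated counts.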
